A study of Arabidopsis thaliana with 18 samples.

Results

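Rosettes of the F1 hybrid C24 x Ler were compared with rosettes of Ler, a parent of that hybrid, in Arabidopsis thaliana, by RNA sequencing. The comparison took in 6 of the 18 libraries of the series, 3 of C24 x Ler and 3 of Ler, and 20325 of the 37336 annotated genes had enough reads to be tested. The hybrid plants are labelled as C24 x Ler with no transgene, and the labels do not say which accession was the mother; the Ler plants are labelled as wild type of that accession. Rosettes of both groups were harvested 21 days after sowing from plants moved from sterile medium to soil at day 14 and kept at 21 °C with 16 h of light. A library combined 6 to 10 plants and is described as a biological replicate, so a p-value measures the spread between pools. A further 3 libraries of the other parent, wild-type C24, and 3 of Ler NahG, which is Ler with a transgene for an enzyme that degrades salicylic acid, came from the same sequencing stage. They entered the same statistical fit, C24 levels are given where they place the hybrid between its parents, and the promoter of the NahG transgene is not given in the labels. The title of the series places the comparison in a study of hybrid vigour and leaf senescence.

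Salicylic acid is a plant hormone of defence against pathogens that live on living tissue, and it acts through the NPR receptors and through EDS1 and PAD4, a pair of proteins downstream of many intracellular immune receptors. Flowering in Arabidopsis is held back by FLC and SVP, MADS-box repressors of the flowering signal FT and of SOC1; once FT and SOC1 rise, the shoot apex turns to making flowers and switches on AP1 and the SEPALLATA genes. Accessions of the species also differ in the glucosinolates they make, sulphur-rich compounds that myrosinase enzymes break down when a leaf is damaged.

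The 3 hybrid libraries held 22601022 to 23044670 reads in genes and the 3 Ler libraries 22734552 to 23286016. Levels are given as CPM, the usual abbreviation for read counts set to a common library total,, scaled for library composition by the TMM method, with factors of 0.867 to 0.924 in the hybrid and 0.965 to 1.109 in Ler. The number of genes with at least 10 reads was 18367 to 18625 in the hybrid libraries and 19272 to 19562 in the Ler libraries. Log2 levels of the hybrid libraries correlated pairwise across genes at 0.987 to 0.991 (Pearson), and those of the Ler libraries at 0.965 to 0.98. Ler replicate 1 stood apart from the other Ler libraries: the summed level of 6 mesophyll markers was 56545 CPM there and 37389 and 35795 CPM in Ler replicates 2 and 3, against 58351 to 62886 CPM in the hybrid. All reads were aligned to the Columbia genome, per the submitters' processing notes, so a gene that is missing or diverged in C24 or Ler can lose reads, and the part of this in any result below was not tested. The strand setting of the counting is not given, so reads of overlapping genes on opposite strands, and of close copies, may not be separated.

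The hybrid differed from Ler in 6149 genes, 30.3% of those tested, at an adjusted p under 0.05 in edgeR's quasi-likelihood test with Benjamini-Hochberg adjustment. Levels were higher in the hybrid for 3215 genes (15.8%) and lower for 2934 (14.4%). The changes over 2-fold leaned to lower levels in the hybrid, with 995 genes higher and 1734 lower, and those over 16-fold were 206 higher and 413 lower. Every hybrid library lay above every Ler library for 19.9% of the tested genes and below for 18.8%. The median log2 fold change of all tested genes was 0.01. With upper-quartile scaling the split was 2416 genes higher and 3578 lower. Without hybrid replicate 1 the count was 3996 and without Ler replicate 3 it was 4064; it was 3949 in a fit of the 6 libraries alone. Without Ler replicate 1, the library that stood apart, 7608 genes were called. In the lists described below, leaving it out gave 22 salicylic acid response genes, 23 genes of the EDS1 node, 14 of pattern-triggered immunity and 18 cysteine-rich kinases that rose, and 12 flowering promoters, 9 floral organ identity genes and 11 apex genes that fell.

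The labels were checked against genes read in C24 and not in Ler NahG, or the reverse, a choice made without the hybrid and Ler libraries. Genes that differ through the NahG transgene can enter this choice beside genes that differ by accession. Of 28 genes with at least 3 CPM in C24 and 0 reads in Ler NahG, 27 had reads in all 3 hybrid libraries and in 27 every hybrid library exceeded every Ler library. Their median level in the hybrid was 43% of that in C24 (quartiles 25.6% and 52.2%), and the highest level of any of them in a Ler library was 0.939 CPM. Of the 28 genes 9 had no read in Ler, and 4, WRKY38 among them, had reads in all 3 Ler libraries. Of 20 genes with at least 3 CPM in Ler NahG and 0 reads in C24, 14 had reads in all 3 hybrid libraries and 3 had none. Their median level in the hybrid was 22.7% of that in Ler (quartiles 0.315% and 46.1%), and 7 were under 1% of Ler. The hybrid libraries thus held reads of genes of both parents.

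**Figure D1:**
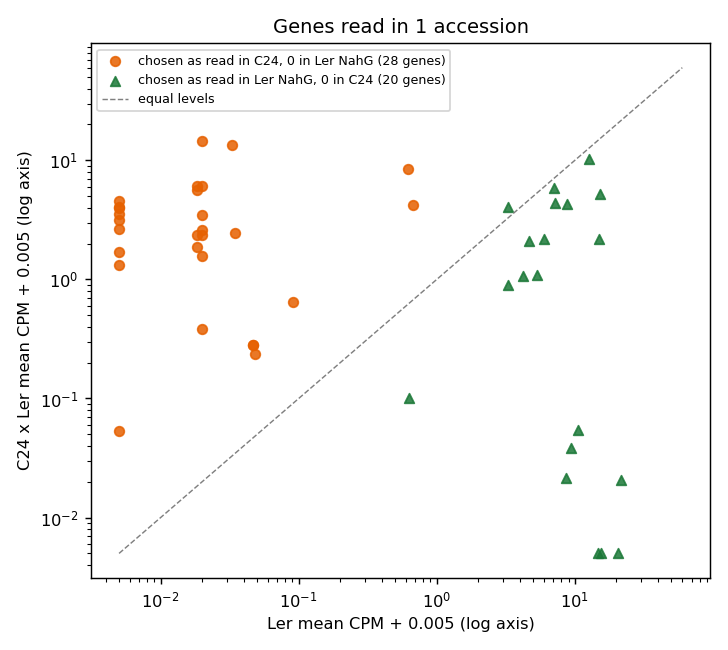
Mean level in C24 x Ler (y axis, CPM + 0.005, log scale) against mean level in Ler (x axis, same unit) for the 28 genes read in C24 and not in Ler NahG and the 20 genes read in Ler NahG and not in C24. In 27 of the 28 genes of C24 every hybrid library was above every Ler library, and 7 of the 20 genes of Ler were under 1% of the Ler level in the hybrid.

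The genes that control flowering time separated the 2 genotypes at an age of 21 days: the repressors FLC and SVP were higher in the hybrid rosette, and the signal FT and the other promoters of flowering that passed the test were lower. Of the 23 listed repressors 21 were tested, and 8 rose (38.1%), 3 fell (14.3%) and 10 did not pass the test in the hybrid. Their median log2 fold change was 0.33 against 0.01 for all genes. Among all genes tested 15.8% rose and 14.4% fell, so the share of repressors that fell was near that of all genes. Of the 28 listed promoters 21 were tested, and 11 fell and 0 rose, with a median of −1.28. In whole rosettes, fewer cells of a type and less RNA per cell cannot be told apart. Genes at or near 0 in the hybrid passed the filter on low counts through Ler, so they had to differ. The same holds for genes near 0 in Ler, as FLC was, which passed it through the hybrid and C24. The counts over these lists are descriptions. The 3 repressors that fell were MAF2, an FLC relative, TFL1, which keeps the shoot apex from forming a flower, and AGL15, a MADS-box repressor. They fell by 0.52, 3.60 and 1.94 on the log2 scale. Without Ler replicate 2 the count of repressors that rose was 4, and it was 5 without hybrid replicate 1 or 2 or Ler replicate 3 and in the fit of the 6 libraries alone.

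FLC, the repressor that vernalization silences, had 15.4, 16 and 13.5 CPM in the hybrid libraries, against 0, 0 and 0.119 CPM in the Ler libraries. Ler held 3 FLC reads in all, and the ratio of hybrid to Ler was 363 with an exact 95% counting interval of 124 to 1763 (edgeR adjusted p = 6.5e-08). FLC passed the filter on low counts through the hybrid and C24, so only a rise could be called. The FLC level of the hybrid lay below that of C24, which averaged 22.6 ± 0.792 CPM (SD, n = 3); the log2 fold change of hybrid to C24 was −0.60 (edgeR adjusted p = 0.033; among all genes 17.2% were higher and 19.3% lower in the hybrid than in C24). FRI, an activator of FLC, averaged 2.91 ± 0.326 CPM in the hybrid and 1.16 ± 0.251 CPM in Ler (SD, n = 3 each; log2 fold change 1.32, SE 0.206, edgeR adjusted p = 0.00071). SVP, the partner of FLC in repression, had 122, 111 and 125 CPM in the hybrid and 84.4, 78.8 and 79.3 CPM in Ler. The groups did not overlap (log2 fold change 0.56, SE 0.0773, edgeR adjusted p = 0.00032). TOE1, an AP2-type repressor of FT, averaged 58.1 ± 10.6 CPM in the hybrid and 28.4 ± 1.7 CPM in Ler (SD, n = 3 each; log2 fold change 1.03, edgeR adjusted p = 0.00049).

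FT, the mobile flowering signal made in leaf veins, had 0, 0.0488 and 0.047 CPM in the hybrid, against 1.7, 1.78 and 1.31 CPM in Ler. The hybrid held 2 FT reads in all, and the level in Ler was 48.8 times that of the hybrid, with an exact 95% counting interval of 13.2 to 408 (edgeR adjusted p = 8.1e-05). SOC1, the MADS-box integrator that FLC represses, had 17.8, 20.5 and 22.7 CPM in the hybrid and 127, 126 and 124 CPM in Ler. Every hybrid library was far below every Ler library, and the log2 fold change was −2.63 (SE 0.0985, edgeR adjusted p = 1.1e-08). C24 averaged 14.2 ± 1.3 CPM of SOC1, and the hybrid was 0.52 higher than C24 on the log2 scale (edgeR adjusted p = 0.0018). FUL, a MADS-box gene that acts with SOC1 at the apex, had 3.83, 3.85 and 2.77 CPM in the hybrid and 34.2, 25 and 25.3 CPM in Ler (log2 fold change −3.01, SE 0.215, edgeR adjusted p = 2.5e-06). SPL4, an age-pathway promoter of flowering, and AGL42, a relative of SOC1, fell to 1.65 ± 0.292 and 1.17 ± 0.54 CPM in the hybrid, against 14.8 ± 3.3 and 13.4 ± 1.66 CPM in Ler (SD, n = 3 each; edgeR adjusted p = 0.00016 and 3.3e-06).

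**Figure D2:**
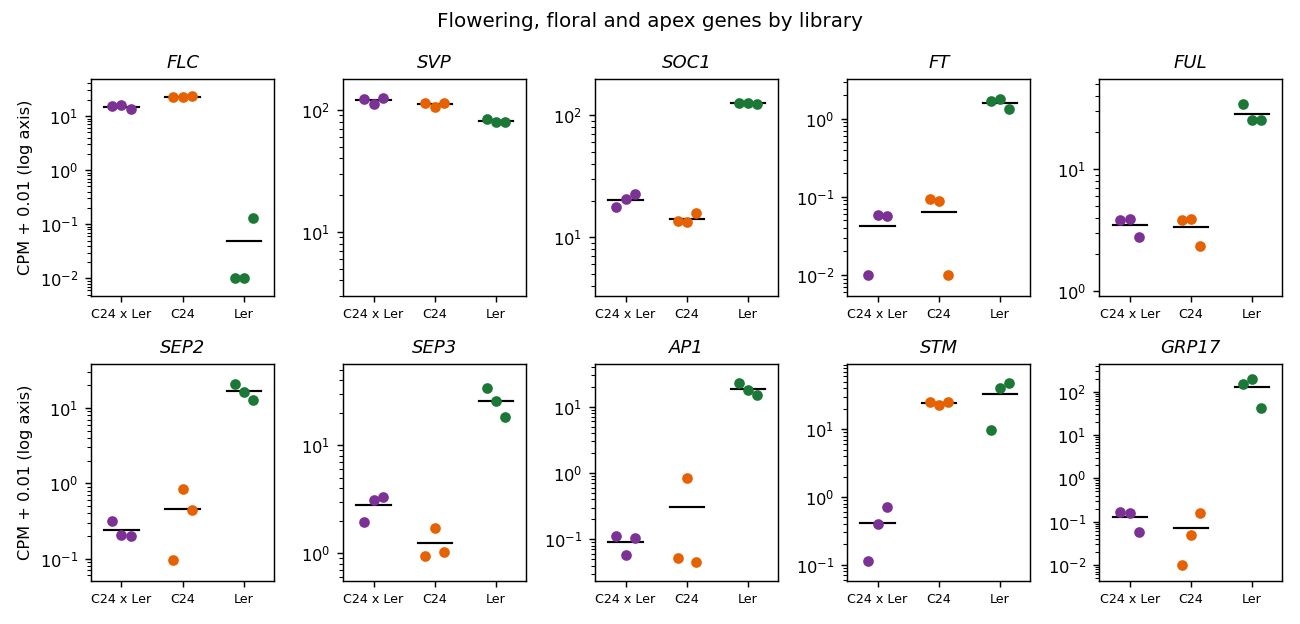
Level in each library (y axis, CPM + 0.01, log scale) of 10 genes of flowering time, flower formation, the shoot apex and the pollen coat in C24 x Ler, C24 and Ler, with 3 points per group and a black line at the mean. FLC and SVP sit higher in the hybrid than in Ler, and the other 8 genes lie lower in every hybrid library than in every Ler library.

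Most genes that mark young flowers were far lower in the hybrid rosettes than in Ler, and several had few or no reads in the hybrid. AP1, which gives a meristem floral identity, had 0.102, 0.0488 and 0.094 CPM in the hybrid, against 23, 17.5 and 15 CPM in Ler (log2 fold change −7.73, SE 0.67, edgeR adjusted p = 1.1e-05). CAL, its close relative, had 0 reads in the hybrid and 1.48, 1.5 and 1.31 CPM in Ler, so that it was at least 29.2-fold lower in the hybrid against a floor of 3 reads over the group. LFY, the master gene of flower formation, had 0 reads in the hybrid and 1.57, 0.513 and 0.318 CPM in Ler, at least 15.7-fold lower, but failed the filter on low counts and was not tested. Of the 12 listed floral organ identity genes 10 were tested, and 9 fell and 1 rose, with a median log2 fold change of −5.33. Members at or near 0 in the hybrid passed the filter on low counts through Ler, so only a fall could be called. The count of this list is a description. The summed level of the 12 genes was 14.9 to 16 CPM in the hybrid libraries and 92.2 to 149 CPM in the Ler libraries, and 2 of them were at 0 in every hybrid library.

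SEP2, a partner of the organ identity factors, had 0.306, 0.195 and 0.188 CPM in the hybrid, against 21, 16.3 and 12.6 CPM in Ler. SEP3, its relative, had 1.94, 3.12 and 3.34 CPM in the hybrid and 33.9, 25.5 and 18.3 CPM in Ler. The groups did not overlap for either gene, with log2 fold changes of −6.15 (SE 0.489) and −3.20 (SE 0.3) and edgeR adjusted p = 5.6e-06 and 2e-05. The petal and stamen genes AP3 and PI fell by 5.45 and 6.51 on the log2 scale and the stamen and carpel gene AG fell by 2.58 (edgeR adjusted p = 9e-05, 4e-05 and 8.6e-05). The carpel gene CRC had 1 read in the hybrid libraries together, and the level in Ler was 227 times that of the hybrid, with an exact 95% counting interval of 40.5 to 9014. STK, an ovule gene, had 0 reads in the hybrid and 2.5, 3.79 and 2.02 CPM in Ler, at least 57-fold lower. SEP4 was the gene of this list that rose, with 8.56 ± 1.24 CPM in the hybrid and 3.17 ± 0.15 CPM in Ler (SD, n = 3 each; log2 fold change 1.43, edgeR adjusted p = 0.00013).

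The largest falls in the hybrid included many genes of the anther and the pollen coat. Among genes with an average log2 CPM of at least 1, the largest falls with non-overlapping groups included MEE48, ATA27, GRP17, GRP19, ACOS5, CYP96A15, MS2, LAP5 and GRP20, with log2 fold changes of −7.74 to −10.47. GRP17, an oleosin-like protein of the pollen coat, had 0.153, 0.146 and 0.047 CPM in the hybrid and 149.6, 193 and 41.3 CPM in Ler (log2 fold change −10.07, SE 1.58, edgeR adjusted p = 0.00078). MS2, which makes fatty alcohols for the pollen wall, had 0.102, 0.0975 and 0.235 CPM in the hybrid and 39.2, 15.3 and 116 CPM in Ler (log2 fold change −8.55, SE 1.29, edgeR adjusted p = 0.0006). CYP96A15, an alkane hydroxylase of stem wax also known as MAH1, had 0.306, 0.146 and 0.282 CPM in the hybrid and 14.9, 193 and 206 CPM in Ler (log2 fold change −9.11, SE 1.42, edgeR adjusted p = 0.00071). These genes were uneven among the Ler pools, with GRP17 lowest in Ler replicate 3 and CYP96A15 lowest in Ler replicate 1. All were near 0 in the hybrid and passed the filter on low counts through Ler and Ler NahG libraries. Only a fall could thus be called, and their p-values are given as description. The summed level of 2 pollen markers was 0 in all 3 hybrid libraries and 0.159 to 13 CPM in Ler. The part of flower buds in these differences was not tested.

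Genes of the shoot apex and of organ boundaries also lay lower in the hybrid. Of the 18 listed 15 were tested, and 9 fell and 1 rose, with a median log2 fold change of −2.03. Members near 0 in the hybrid, as STM was, passed the filter on low counts through the other groups, so this count is a description. STM, the homeobox gene that maintains the shoot meristem, had 0.102, 0.39 and 0.705 CPM in the hybrid and 9.7, 40.2 and 48.5 CPM in Ler (log2 fold change −6.32, SE 0.864, edgeR adjusted p = 0.00031). Ler replicate 1 was the lowest of the Ler libraries and still above every hybrid library. C24, which averaged 0.0546 ± 0.0474 CPM of FT, had 24.3 ± 1.43 CPM of STM (SD, n = 3), and the hybrid was 5.89 lower than C24 on the log2 scale (edgeR adjusted p = 0.00039). KNAT1, a relative of STM that shapes stems, had 0.0511, 0.244 and 0.94 CPM in the hybrid and 6.98, 56.5 and 63.8 CPM in Ler (log2 fold change −6.64, SE 1.12, edgeR adjusted p = 0.0012).

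The relatives KNAT2 and KNAT6 fell by 3.97 and 3.77 on the log2 scale, and CUC1, a boundary gene, had 0.102, 0.0975 and 0.094 CPM in the hybrid and 0.805, 0.948 and 0.754 CPM in Ler (log2 fold change −3.03, SE 0.39, edgeR adjusted p = 0.0002). ATH1, a homeobox gene that activates FLC, was the member that rose, with 54.8 ± 6.9 CPM in the hybrid and 29 ± 6.85 CPM in Ler (SD, n = 3 each; log2 fold change 0.92, edgeR adjusted p = 0.0018). The summed level of the 18 genes was 117 to 147 CPM in the hybrid and 141 to 254 CPM in Ler, so the sums overlapped. How much shoot apex each rosette sample held was not recorded in the labels, and its part in these falls was not tested.

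ER, the ERECTA receptor kinase of organ shape and stomatal patterning, is carried by Ler as a mutant allele. That is background and is not seen in read counts. ER had 79.2, 94.1 and 104 CPM in the hybrid and 119.8, 152 and 134 CPM in Ler, without overlap (log2 fold change −0.55, SE 0.112, edgeR adjusted p = 0.0039). ERL1, its relative, had 3.47, 3.9 and 4 CPM in the hybrid and 13.1, 14.1 and 11 CPM in Ler (log2 fold change −1.75, SE 0.142, edgeR adjusted p = 6.6e-06). Of the 17 genes of the ERECTA family and stomatal lineage, all tested, 6 fell (35.3%) and 2 rose (11.8%), with a median log2 fold change of −0.17. Among all genes tested 14.4% fell and 15.8% rose. The ligands EPFL4 and EPFL6, which act through ERECTA in stems, fell by 2.63 and 2.13, and their relative EPFL5 rose by 1.00 on the log2 scale. FAMA, a factor of late guard-cell formation, rose by 0.81 (edgeR adjusted p = 0.0092), and SCRM, its partner, fell by 0.45 (edgeR adjusted p = 0.0047). The count of this list that rose was 1 without hybrid replicate 2 or 3 or Ler replicate 2 or 3, and 3 without Ler replicate 1. In the fit of the 6 libraries alone 1 rose and 4 fell. The summed level of 4 trichome and guard-cell markers was 34 to 44.2 CPM in the hybrid and 20.3 to 30.3 CPM in Ler, without overlap, with 1 of the 4 called higher, none called lower and none at 0 in either group. Its part in the stomatal list was not tested.

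Defence genes that passed the test were nearly all higher in the hybrid than in Ler, in the lists of salicylic acid response, immune receptors with the EDS1 node, pattern-triggered immunity and cysteine-rich kinases; the secreted markers PR1 and PR5 did not pass it with all libraries. Among all genes tested 15.8% rose and 14.4% fell. The lists were chosen with earlier results of these data known, so the counts over these defence lists are descriptions. In the list of salicylic acid response genes, all 30 of them tested, 19 rose and 1 fell, with a median log2 fold change of 1.36. In the fit of the 6 libraries alone 12 rose, and the number lay between 14 and 22 when single libraries were left out. The rises in this list were largest for WRKY38, PCC1, LURP1 and BDA1; ACD6, from the list of cell-death control, rose alongside them, and MLO12, a relative of a mildew susceptibility gene, was the member that fell. The promoters of ACD6 and of 3 of the list members with the largest rises are shown because these genes rose together, so that the sequences before them can be read side by side. Each is the 250 bases before the annotated start, 5′ to 3′ on the strand of the gene, from the TAIR10.1 assembly of Columbia (RefSeq); capitals mark the W-box, bound by WRKY factors, as TTGACC or TTGACT on either strand, and TGACG, bound by TGA factors, on either strand. BDA1 lies at chr5:22186634-22186883 on the minus strand, PCC1 at chr3:7846834-7847083 on the minus strand, WRKY38 at chr5:7496991-7497240 on the minus strand and ACD6 at chr4:8293915-8294164 on the plus strand.
BDA1: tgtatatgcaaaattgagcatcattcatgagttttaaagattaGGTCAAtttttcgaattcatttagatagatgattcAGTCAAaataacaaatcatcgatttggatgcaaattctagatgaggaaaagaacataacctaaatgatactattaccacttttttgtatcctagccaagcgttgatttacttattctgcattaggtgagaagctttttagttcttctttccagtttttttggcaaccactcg
PCC1: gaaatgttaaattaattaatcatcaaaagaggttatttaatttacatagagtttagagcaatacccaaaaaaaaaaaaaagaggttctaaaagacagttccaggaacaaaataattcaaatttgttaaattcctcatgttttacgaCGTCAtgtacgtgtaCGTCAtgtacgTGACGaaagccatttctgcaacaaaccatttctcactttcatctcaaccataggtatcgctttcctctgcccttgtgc
WRKY38: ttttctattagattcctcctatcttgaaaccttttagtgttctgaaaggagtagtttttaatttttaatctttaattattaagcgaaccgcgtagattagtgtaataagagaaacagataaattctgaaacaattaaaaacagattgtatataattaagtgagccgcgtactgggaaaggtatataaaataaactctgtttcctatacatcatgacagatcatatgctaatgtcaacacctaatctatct
ACD6: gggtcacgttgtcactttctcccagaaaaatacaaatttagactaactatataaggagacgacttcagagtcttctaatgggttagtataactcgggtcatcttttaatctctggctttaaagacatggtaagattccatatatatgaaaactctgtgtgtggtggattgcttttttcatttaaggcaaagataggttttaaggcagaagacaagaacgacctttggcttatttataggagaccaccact
The BDA1 window held 2 W-boxes, 207 and 172 bases before the start, and overlapped an annotated noncoding gene on the other strand. The PCC1 window held 3 TGACG motifs, 104, 89 and 78 bases before the start. No W-box and no TGACG was found in the windows of WRKY38 and ACD6.

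ACD6, an ankyrin membrane protein that raises salicylic acid signalling, had 211, 131 and 131 CPM in the hybrid and 15.7, 7.31 and 7.3 CPM in Ler (log2 fold change 3.97, SE 0.3, edgeR adjusted p = 3.7e-06). Every hybrid library was far above the highest Ler library, and C24 was higher again at 501 ± 8.71 CPM (SD, n = 3). WRKY38, a transcription factor induced by salicylic acid, had 9.96, 8.92 and 6.3 CPM in the hybrid and 0.939, 0.395 and 0.516 CPM in Ler (log2 fold change 3.78, SE 0.285, edgeR adjusted p = 1.6e-05). BDA1, an ankyrin protein of salicylic acid signalling, had 99.2, 65.2 and 68.9 CPM in the hybrid and 15.1, 9.16 and 6.83 CPM in Ler (log2 fold change 2.91, SE 0.25, edgeR adjusted p = 1e-05). PCC1, a small membrane protein of pathogen response and flowering time, had 394, 343 and 252 CPM in the hybrid and 49.4, 21.7 and 19.4 CPM in Ler (log2 fold change 3.45, SE 0.332, edgeR adjusted p = 2.4e-05). In both groups replicate 1 gave the highest level of all 4 genes.

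LURP1, needed for basal defence against downy mildew, averaged 651 ± 242 CPM in the hybrid and 83.8 ± 47.5 CPM in Ler (SD, n = 3 each; log2 fold change 2.96, edgeR adjusted p = 0.00014). WRKY54 and WRKY70, a pair of factors that act in salicylic acid responses and restrain senescence, rose to 64.3 ± 16.5 CPM and to 359.8, 277 and 135 CPM in the hybrid, against 11.4 ± 6.65 CPM and 107, 30.4 and 57.3 CPM in Ler (edgeR adjusted p = 0.00021 and 0.0044). The groups did not overlap for either factor. ALD1, which makes the systemic signal precursor of pipecolic acid, rose by 2.60, and NIMIN2, a partner of NPR1, by 2.11. ALD1 was hardly read in either group, at 0.276 CPM in the hybrid and 0.0414 CPM in Ler, and C24 averaged 9.66 CPM. All 5 genes ACD6, WRKY38, BDA1, PCC1 and LURP1 lay lower in the hybrid than in C24, by 1.67, 2.68, 1.02, 1.06 and 1.16 on the log2 scale (edgeR adjusted p = 0.00067, 1.9e-05, 0.0049, 0.017 and 0.02).

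PR1, PR2 and PR5, secreted proteins used as markers of systemic resistance, overlapped between the groups, and only PR2 of the 3 passed the test with all libraries. PR1 had 6.28, 4.83 and 10.2 CPM in the hybrid and 28.4, 6.44 and 3.25 CPM in Ler, so the groups overlapped, and it did not pass the test (log2 fold change −0.83, SE 0.602, edgeR adjusted p = 0.33). Without Ler replicate 1, the library with the highest PR1 of the 6, the log2 fold change was 0.55 (edgeR adjusted p = 0.22). PR5 had 26.9, 25.4 and 42.6 CPM in the hybrid and 35.1, 12.7 and 13 CPM in Ler and did not pass with all libraries (log2 fold change 0.65, edgeR adjusted p = 0.18). Without Ler replicate 1, also the highest Ler library for PR5, PR5 passed as higher in the hybrid (edgeR adjusted p = 0.00069). Over its other alternatives the adjusted p was 0.12 to 0.48. PR2 had 27.7, 19.8 and 33.3 CPM in the hybrid and 20.3, 9.87 and 10 CPM in Ler (log2 fold change 1.01, SE 0.299, edgeR adjusted p = 0.025), with an overlap of the groups. The PR2 call ended without hybrid replicate 1 or 3 or Ler replicate 2 or 3, at adjusted p of 0.071, 0.084, 0.094 and 0.096, and in the fit of the 6 libraries alone at 0.062. Without Ler replicate 1 the PR2 log2 fold change was 1.44 (adjusted p = 0.0015). C24 stood far above the hybrid for all 3, with 2604 ± 252 CPM of PR1, 461 ± 16.1 CPM of PR2 and 628 ± 52.1 CPM of PR5 (SD, n = 3), and the log2 fold changes of hybrid to C24 were −8.52, −4.10 and −4.31 (edgeR adjusted p = 1.1e-05, 4.9e-06 and 1e-05).

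**Figure D3:**
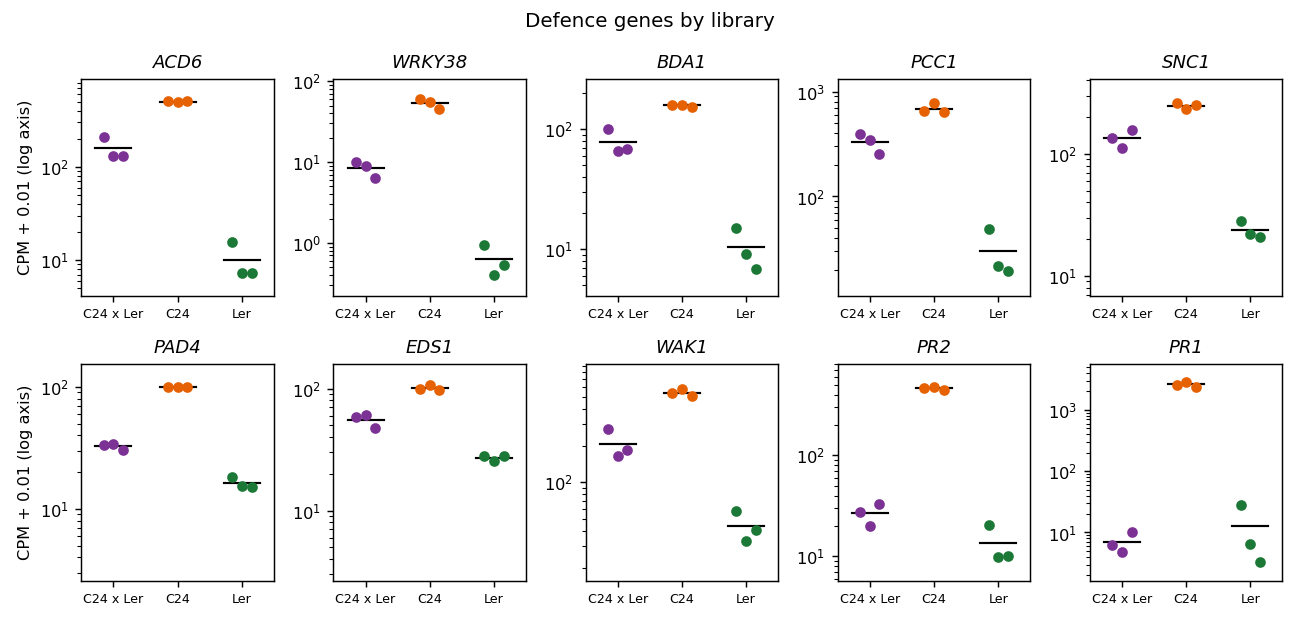
Level in each library (y axis, CPM + 0.01, log scale) of 10 defence genes in C24 x Ler, C24 and Ler, with 3 points per group and a black line at the mean. ACD6, WRKY38, BDA1, PCC1 and SNC1 are higher in every hybrid library than in every Ler library. PR1 and PR2 overlap between the hybrid and Ler, and the mean of each of the 10 genes is highest in C24.

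Genes that make or sense salicylic acid moved both ways. Of the 19 listed, all tested, 7 rose (36.8%) and 4 fell (21.1%), beside 15.8% and 14.4% of all genes tested. The median log2 fold change of the list was 0.37. ICS1, the main enzyme of salicylic acid synthesis, had 11.6, 15.7 and 16.2 CPM in the hybrid and 10.4, 10.5 and 9.17 CPM in Ler (log2 fold change 0.53, SE 0.124, edgeR adjusted p = 0.008). Its call ended in the fit of the 6 libraries alone (adjusted p = 0.055). EDS5, the exporter of its product from the chloroplast, rose by 1.68 and CBP60G, an activator of ICS1, by 1.94 (SE 0.254 and 0.265, edgeR adjusted p = 0.00062 and 0.0003). NPR4, a salicylic acid receptor, had 56.8, 55 and 47.9 CPM in the hybrid and 31.3, 24.9 and 27.9 CPM in Ler (log2 fold change 0.93, SE 0.0978, edgeR adjusted p = 5e-05). BSMT1, which turns salicylic acid into its volatile methyl ester, had 0 reads in the hybrid and 5.95, 2.73 and 3.29 CPM in Ler, at least 80-fold lower (edgeR adjusted p = 6.8e-05). BSMT1 passed the filter on low counts through Ler and Ler NahG, so only a fall could be called. PAL1, the entry enzyme of phenylpropanoid synthesis, had 22.9, 26.8 and 26.2 CPM in the hybrid and 77.7, 51.1 and 78.4 CPM in Ler (log2 fold change −1.45, SE 0.201, edgeR adjusted p = 0.00035).

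The list of the EDS1 node, intracellular receptors and cell-death control had 31 genes, of which 29 were tested; 23 rose and 0 fell, with a median log2 fold change of 0.95. The number that rose stayed between 19 and 23 when single libraries were left out. Members near 0 in Ler, as CSA1 and CHS3 were, passed the filter on low counts through the hybrid and C24. This count is thus a description. EDS1 had 58.4, 60.6 and 47.3 CPM in the hybrid and 27.9, 25.4 and 27.8 CPM in Ler (log2 fold change 1.04, SE 0.123, edgeR adjusted p = 0.00011). PAD4 had 33.6, 33.7 and 30.5 CPM in the hybrid and 18.2, 15.5 and 15 CPM in Ler (log2 fold change 1.00, SE 0.0875, edgeR adjusted p = 1.1e-05). SNC1, an intracellular receptor whose gain of function gives autoimmunity, had 135, 112 and 157 CPM in the hybrid and 27.9, 22 and 20.8 CPM in Ler (log2 fold change 2.52, SE 0.153, edgeR adjusted p = 6.6e-07). For all 3 genes the groups did not overlap and the hybrid lay below C24, by 0.87, 1.61 and 0.88 on the log2 scale (edgeR adjusted p = 0.00026, 2.8e-07 and 0.00077).

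Several receptor genes were hardly read in Ler and well read in the hybrid. CSA1 and CHS3, near 0 in Ler, passed the filter on low counts through the hybrid and C24. Only a rise could thus be called for them, and their p-values are given as description. CSA1, a TIR-type receptor, had 45.7, 42.7 and 42.3 CPM in the hybrid and 0.134, 0.118 and 0.119 CPM in Ler (log2 fold change 8.40, SE 0.247, edgeR adjusted p = 2e-09). Its neighbour and partner CHS3 had 20.7, 17 and 24.3 CPM in the hybrid and 0.0447, 0.079 and 0.119 CPM in Ler (log2 fold change 7.88, SE 0.304, edgeR adjusted p = 1.3e-08). The hybrid averaged 43.6 ± 1.9 CPM of CSA1 and C24 96.2 ± 0.47 CPM, and for CHS3 the averages were 20.7 ± 3.69 CPM in the hybrid and 44.3 ± 2.1 CPM in C24 (SD, n = 3 each). RPM1, a coiled-coil receptor, showed the other parental pattern: it had 11.2, 10.5 and 9.31 CPM in the hybrid, 0 reads in C24, and 15.5, 11 and 11.2 CPM in Ler (hybrid to Ler log2 fold change −0.28, edgeR adjusted p = 0.21). Whether unread receptor genes are absent from an accession or too diverged to align was not tested.

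Surface receptors of microbial and wall-derived patterns rose as well. Of the 21 listed genes of pattern-triggered immunity, all tested, 12 rose and 0 fell, with a median log2 fold change of 0.62. WAK1 and WAK2, wall-associated kinases, had 274, 164 and 184 CPM and 246, 177 and 187 CPM in the hybrid, against 57.8, 33 and 40.8 CPM and 78.9, 40.1 and 50 CPM in Ler. Neither gene overlapped between the groups, and the log2 fold changes were 2.24 (SE 0.271) and 1.85 (SE 0.212), at edgeR adjusted p = 0.00013 and 8.6e-05. FLS2, the flagellin receptor, rose by 1.26 and SOBIR1, the adaptor kinase of receptor-like proteins, by 1.51 (edgeR adjusted p = 0.0014 and 0.001). Of the 26 cysteine-rich receptor-like kinases, all tested, 14 rose and 1 fell, with a median of 1.05. CRK4 had 14.3, 7.41 and 11.3 CPM in the hybrid and 2 reads in Ler, a ratio of 400.2 with an exact 95% counting interval of 110.3 to 3311. CRK14, another kinase of this family, had 7.96, 5.22 and 5.73 CPM in the hybrid and 0.313, 0.118 and 0.0794 CPM in Ler (log2 fold change 5.21, SE 0.296, edgeR adjusted p = 4.1e-07). CRK4 and CRK14, near 0 in Ler, passed the filter on low counts through the hybrid and C24. Only a rise could be called for them, and the count of the kinase list is a description. The CRK genes include tandem copies, and reads shared between copies may have been lost or split.

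Endoplasmic reticulum chaperones, which fold secreted defence proteins, gave few calls. Of 11 tested of 12, 2 rose (18.2%) and 1 fell (9.09%), with a median log2 fold change of 0.13. Among all genes tested 15.8% rose and 14.4% fell, so the share that rose was near that of all genes. With upper-quartile scaling 1 rose and 2 fell. In the fit of the 6 libraries alone, and without any 1 library other than Ler replicate 2, 1 rose. CRT3, a calreticulin that folds immune receptors, averaged 116 ± 12.1 CPM in the hybrid and 65.3 ± 7.12 CPM in Ler (SD, n = 3 each; log2 fold change 0.83, SE 0.0997, edgeR adjusted p = 0.00012). PDIL1-1, a disulfide isomerase, was the member that fell, with 124, 135 and 126 CPM in the hybrid and 159, 166 and 157 CPM in Ler (log2 fold change −0.32, edgeR adjusted p = 0.0096).

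**Figure D4:**
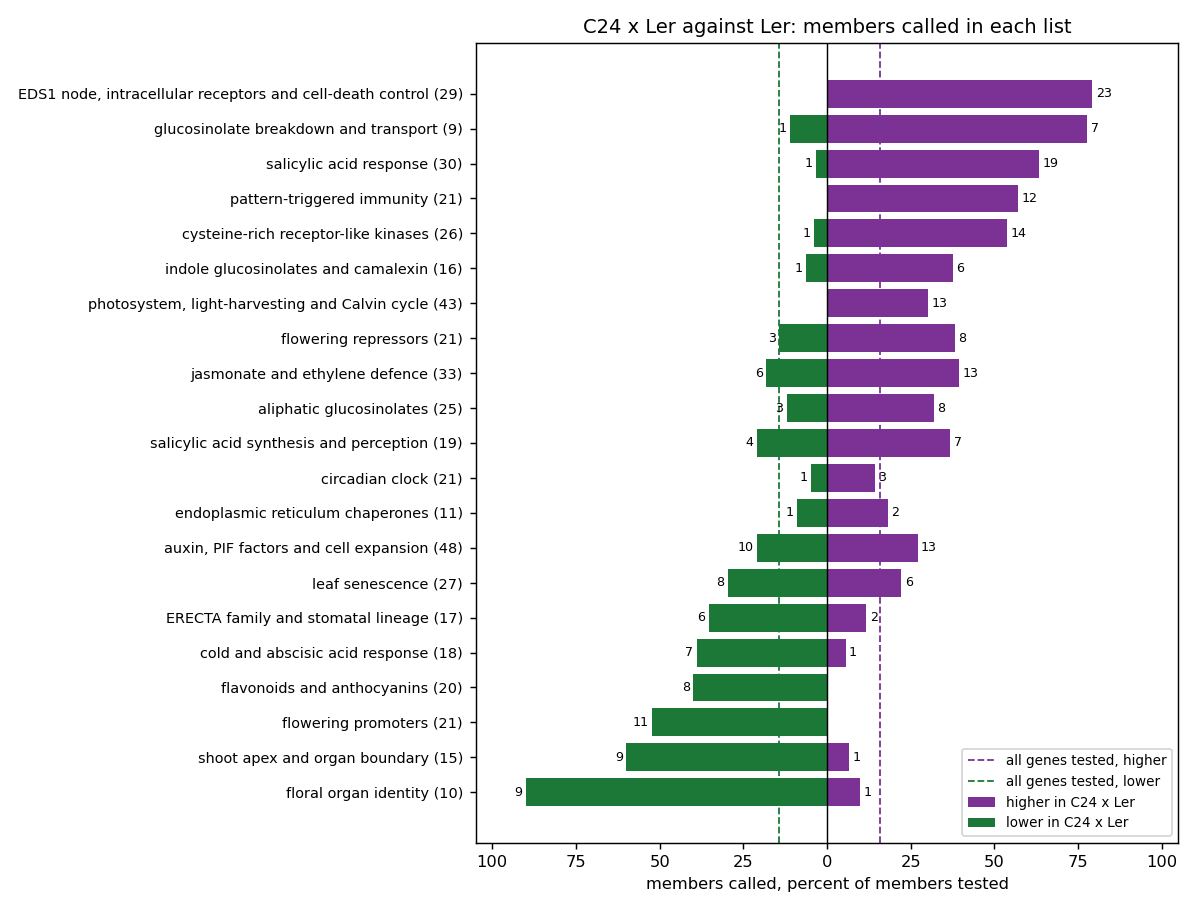
Percent of the tested members of each gene list called higher (right) and lower (left) in C24 x Ler than in Ler at an adjusted p under 0.05 (edgeR), with the number of genes beside each bar; dashed lines mark 15.8% higher and 14.4% lower among all genes. The bars of the EDS1 node and of glucosinolate breakdown reach farthest right (23 of 29 and 7 of 9 genes), and that of floral organ identity reaches farthest left (9 of 10). Floral members at or near 0 in the hybrid passed the filter on low counts through Ler, so only a fall could be called. Receptor members near 0 in Ler passed it through the hybrid and C24, so only a rise could be called.

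Glucosinolate genes included AOP2 and TGG2, well read in the hybrid and hardly read in Ler. AOP2, which turns methylsulfinylalkyl glucosinolates into alkenyl forms, had 1145, 1049 and 1167 CPM in the hybrid and 6.3, 5.17 and 5.12 CPM in Ler (log2 fold change 7.66, SE 0.138, edgeR adjusted p = 4.2e-11). Its tandem neighbour AOP3, which makes hydroxyalkyl forms instead, had 579, 465 and 559 CPM in the hybrid and 744, 681 and 688 CPM in Ler (log2 fold change −0.40, SE 0.104, edgeR adjusted p = 0.014). The AOP3 call ended in the fit of the 6 libraries alone (adjusted p = 0.056). C24 averaged 1887 ± 119 CPM of AOP2 and 0.691 ± 0.115 CPM of AOP3 (SD, n = 3), so the hybrid was the genotype of the 3 in which both genes were well read. AOP2 and AOP3 are close copies, and reads common to both may be split or dropped.

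TGG2, a myrosinase, had 1665, 1792 and 1687 CPM in the hybrid and 11.9, 9.68 and 9.05 CPM in Ler (log2 fold change 7.39, SE 0.169, edgeR adjusted p = 2.2e-10). TGG1, the neighbouring myrosinase gene, had 5216, 6041 and 4889 CPM in the hybrid and 2022, 1855 and 1421 CPM in Ler (log2 fold change 1.61, SE 0.181, edgeR adjusted p = 7.9e-05). ESP, which steers breakdown towards nitriles, had 8050.0, 8899 and 7862 CPM in the hybrid and 4959, 4509.6 and 3075 CPM in Ler (log2 fold change 0.98, SE 0.185, edgeR adjusted p = 0.0024). No library of the hybrid overlapped one of Ler for these 3 genes. Of the 9 genes of glucosinolate breakdown and transport, all tested, 7 rose and 1 fell, with a median log2 fold change of 0.98. Those that rose included ESM1, which turns breakdown towards isothiocyanates (log2 fold change 1.13), and GTR1, a glucosinolate importer (0.49), and the member that fell was its relative GTR2, by 1.08.

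Of the 26 genes of aliphatic glucosinolate synthesis 25 were tested, with a median log2 fold change of 0.15. Of those tested 8 rose (32%) and 3 fell (12%), beside 15.8% and 14.4% of all genes tested. A total of 5 rose without hybrid replicate 1 or Ler replicate 2, and 1 fell without hybrid replicate 1 or 2 or Ler replicate 3. In the fit of the 6 libraries alone 4 rose and 1 fell. MAM1, a chain-elongation enzyme, had 427, 317 and 518 CPM in the hybrid and 176, 147 and 221 CPM in Ler (log2 fold change 1.21, edgeR adjusted p = 0.0021). FMO GS-OX2, an oxygenase of the side chain, had 13, 15.3 and 19.6 CPM in the hybrid and 6.35, 8.89 and 5.91 CPM in Ler (log2 fold change 1.18, SE 0.188, edgeR adjusted p = 0.00085). Among 17 genes of indole glucosinolates and camalexin, 16 of them tested, 6 rose (37.5%) and 1 fell (6.25%), with a median of 0.27. The transferase GSTF10 rose by 0.90, the methyltransferase IGMT1 by 1.01 and the atypical myrosinase PEN2 by 0.85 on the log2 scale (edgeR adjusted p = 0.00028, 0.0021 and 0.0025). PEN3, the transporter that acts with PEN2, rose by 1.08 (edgeR adjusted p = 0.0021).

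**Figure D5:**
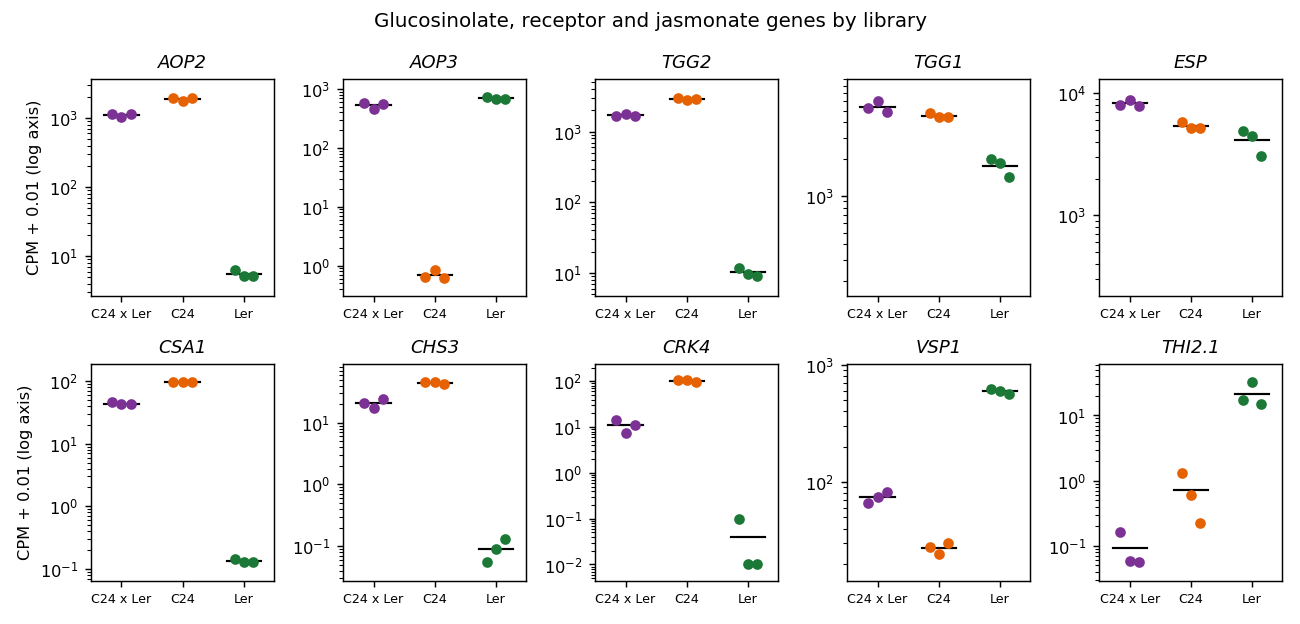
Level in each library (y axis, CPM + 0.01, log scale) of 10 genes of glucosinolate chemistry, receptors and jasmonate response in C24 x Ler, C24 and Ler, with 3 points per group and a black line at the mean. AOP2, TGG2, CSA1, CHS3 and CRK4 are high in the hybrid and C24 and hardly read in Ler, AOP3 is high in the hybrid and Ler, and VSP1 and THI2.1 are lower in the hybrid than in Ler.

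Enzymes of jasmonate synthesis rose in the hybrid, and the storage proteins VSP1 and VSP2 and the thionin THI2.1 fell. Of the 35 listed jasmonate and ethylene genes 33 were tested, with a median log2 fold change of 0.52. Of those tested 13 rose (39.4%) and 6 fell (18.2%). Among all genes tested 15.8% rose and 14.4% fell, so the share of the list that fell was near that of all genes. LOX2, the lipoxygenase of the first step in chloroplasts, had 2704, 1869 and 2495 CPM in the hybrid and 1422, 867 and 794 CPM in Ler (edgeR adjusted p = 0.0082), and AOC1, an allene oxide cyclase, rose by 2.19 (SE 0.288, edgeR adjusted p = 0.00022). Of the other enzymes of the pathway, LOX3, AOS, AOC2 and OPR3 rose by 1.18, 1.23, 1.34 and 0.53 on the log2 scale, and JAR1, which forms the active amino acid conjugate, by 0.52. JAZ5 and JAZ10, repressors that jasmonate signalling induces, fell by 1.54 and 1.36. VSP1, a vegetative storage protein induced by jasmonate, had 66.5, 74.9 and 82.6 CPM in the hybrid and 617, 602 and 559 CPM in Ler (log2 fold change −2.99, SE 0.113, edgeR adjusted p = 1.1e-08). Its tandem relative VSP2 fell by 1.19 (edgeR adjusted p = 0.0016). THI2.1, a thionin, had 0.153, 0.0488 and 0.047 CPM in the hybrid and 17.5, 32.2 and 15 CPM in Ler (log2 fold change −7.96, SE 0.742, edgeR adjusted p = 2e-05). Near 0 in the hybrid, THI2.1 passed the filter on low counts through Ler and Ler NahG, so only a fall could be called. The related thionin THI2.2 lay the other way, with 39, 49.7 and 43.1 CPM in the hybrid and 0.939, 0.829 and 0.635 CPM in Ler (log2 fold change 5.77, SE 0.179, edgeR adjusted p = 2.5e-09).

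Of the 10 largest rises among called genes with an average log2 CPM of at least 1 and groups that do not overlap, those not yet described were also low in Ler. ZW9, a TRAF-domain protein, had 38.9, 46.8 and 33.9 CPM in the hybrid and 0.805, 0.434 and 0.238 CPM in Ler (log2 fold change 6.35, SE 0.299, edgeR adjusted p = 7.5e-08). The cytochromes P450 CYP706A2 and CYP81D1 rose by 4.56 and 4.42, the steroid dehydrogenase-like HSD2 by 4.25 and the receptor-like protein RLP18 by 3.90 on the log2 scale (edgeR adjusted p = 1.1e-05, 1.1e-07, 1.9e-05 and 2.1e-06). In the hybrid ZW9 and CYP706A2 averaged 39.8 ± 6.49 and 17.9 ± 0.845 CPM, against 40.4 ± 4.44 and 27.7 ± 0.599 CPM in C24 (SD, n = 3 each), and neither passed the test between hybrid and C24 (edgeR adjusted p = 0.96 and 0.12).

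Flavonoid genes were lower in the hybrid where they passed the test, and so were the listed cold and abscisic acid genes apart from 1. Of the 22 listed flavonoid and anthocyanin genes 20 were tested, and 8 fell and 0 rose, with a median log2 fold change of −0.69. CHS, the first enzyme of the pathway, had 27.4, 42.2 and 35.5 CPM in the hybrid and 145, 83.7 and 100.1 CPM in Ler (log2 fold change −1.65, SE 0.244, edgeR adjusted p = 0.00052). TT7, the flavonoid 3′-hydroxylase, fell by 2.75 (SE 0.291) and FLS1, the flavonol synthase, by 1.90 (SE 0.208), at edgeR adjusted p = 5.2e-05 and 6.4e-05. Of the 18 listed genes of the cold and abscisic acid response, all tested, 7 fell and 1 rose, with a median of −0.44. The dehydrins COR47 and LTI30 fell by 0.71 and 1.56 on the log2 scale (edgeR adjusted p = 0.0024 and 0.0018), with 275, 294 and 274 CPM of COR47 in the hybrid and 369.5, 509 and 496 CPM in Ler.

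Senescence genes did not move as one list. Of the 28 listed 27 were tested, and 6 rose (22.2%) and 8 fell (29.6%), beside 15.8% and 14.4% of all genes tested. The median log2 fold change of the list was −0.38. The number that rose was 2 without hybrid replicate 1, Ler replicate 2 or Ler replicate 3, with upper-quartile scaling and in the fit of the 6 libraries alone, and it was 3 without hybrid replicate 2. SAG12, the protease used as a marker of senescence, had 0 reads in all 6 libraries. NAC016, a factor that promotes senescence, had 6.33, 4.73 and 7.19 CPM in the hybrid and 1.07, 0.908 and 1.27 CPM in Ler (log2 fold change 2.48, SE 0.191, edgeR adjusted p = 4.1e-06). GLN1;4, a glutamine synthetase of nitrogen export from old leaves, averaged 3.64 ± 0.288 CPM in the hybrid and 10.6 ± 1.64 CPM in Ler, without overlap (SD, n = 3 each; log2 fold change −1.54, SE 0.145, edgeR adjusted p = 2e-05). NAP, NAC019 and ORS1, transcription factors tied to senescence, fell by 1.49, 2.41 and 0.99 on the log2 scale, as did BFN1, a nuclease of dying cells. The chlorophyll breakdown genes NYE1 and NYC1 rose by 0.34 and 0.52. SAG13, an early senescence and stress marker, had 1.84, 1.85 and 1.41 CPM in the hybrid and 11.8, 2.65 and 2.82 CPM in Ler (log2 fold change −1.74, SE 0.538, edgeR adjusted p = 0.03). The SAG13 call ended without any 1 of hybrid replicates 1, 2 and 3 and Ler replicate 1, at adjusted p of 0.078, 0.07, 0.087 and 0.059, and in the fit of the 6 libraries alone at 0.073. The log2 fold change was −1.62 to −1.82 without a hybrid library and −0.68 without Ler replicate 1, the library with the highest SAG13.

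Photosynthesis genes leaned higher in the hybrid, and the number that passed the test depended on single libraries. Of the 44 listed genes of the photosystems, light harvesting and Calvin cycle 43 were tested, and 13 rose and 0 fell, with a median log2 fold change of 0.46. The number that rose was 2, 5 and 9 without hybrid replicates 1, 2 and 3, and 37, 1 and 1 without Ler replicates 1, 2 and 3. It was 1 in the fit of the 6 libraries alone, 6 with upper-quartile scaling, 8 with RLE scaling and 26 in DESeq2. RBCS1B, a small subunit of Rubisco, had 3195, 2942 and 2826 CPM in the hybrid and 2177, 1178 and 1248 CPM in Ler (log2 fold change 0.96, SE 0.214, edgeR adjusted p = 0.0062). RBCS2B had 6792, 5932 and 5235 CPM in the hybrid and 4726, 2519 and 2735 CPM in Ler (log2 fold change 0.85, edgeR adjusted p = 0.015); its call ended without hybrid replicate 1 (0.064) and without Ler replicate 2 or 3 (0.06 and 0.059). Ler replicate 1 was the nearest to the hybrid for both genes, as it was for the mesophyll marker sum, and the part of its tissue makeup in the list was not tested.

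Growth hormone and clock genes gave mixed calls. Of the 51 listed genes of auxin, PIF factors and cell expansion 48 were tested, with a median log2 fold change of 0.19. Of those tested 13 rose (27.1%) and 10 fell (20.8%), beside 15.8% and 14.4% of all genes tested. In this list 8 rose without Ler replicate 2 or 3. PIF4, a factor of warmth- and shade-driven growth, had 82.8, 74.2 and 114 CPM in the hybrid and 66.2, 77 and 72.2 CPM in Ler, with overlap (log2 fold change 0.33, edgeR adjusted p = 0.11). YUC8, an auxin-synthesis gene downstream of PIF4, had 12 reads in the hybrid and 17 in Ler and was not tested. GH3.3, which conjugates auxin, had 1.48, 1.66 and 1.88 CPM in the hybrid and 9.44, 6.04 and 7.86 CPM in Ler (log2 fold change −2.21, SE 0.237, edgeR adjusted p = 5.6e-05). AN3, a growth coactivator of leaves, had 2.81, 4.39 and 8.46 CPM in the hybrid and 23.7, 26.2 and 27.1 CPM in Ler (log2 fold change −2.29, SE 0.274, edgeR adjusted p = 0.00012). The groups did not overlap for either gene. The auxin repressors IAA7 and IAA29 rose by 0.77 and 1.33 (edgeR adjusted p = 0.00034 and 0.0035).

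Of the 21 clock genes, all tested, 3 rose (14.3%) and 1 fell (4.76%), with a median of 0.01. Among all genes tested 15.8% rose and 14.4% fell, so neither share of the clock list exceeded that of all genes. The number that rose was 0 without hybrid replicate 1 or Ler replicate 2 or 3, with upper-quartile scaling or in the fit of the 6 libraries alone. CCA1, a core morning gene, had 1.63, 1.76 and 2.3 CPM in the hybrid and 2.24, 2.33 and 2.3 CPM in Ler (log2 fold change −0.27, edgeR adjusted p = 0.48). RVE1, a clock output factor of auxin synthesis, had 0.613, 0.683 and 0.376 CPM in the hybrid and 1.92, 1.74 and 3.14 CPM in Ler (log2 fold change −2.02, SE 0.366, edgeR adjusted p = 0.0019). PRR3 rose by 0.29 (edgeR adjusted p = 0.018), and its call ended without hybrid replicate 1 and without Ler replicate 2 or 3, at adjusted p of 0.074, 0.059 and 0.074, and with upper-quartile scaling and in the fit of the 6 libraries alone, at 0.057 and 0.1.

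The motifs shown in the 4 promoters were counted before all tested genes with a window, as a description. A W-box (TTGACC or TTGACT, either strand) lay in the 250 bases of 33.4% of the 3205 genes higher in the hybrid (Wilson 95% interval 31.8% to 35%), 24.9% of the 2931 lower genes (23.4% to 26.5%) and 28% of all 20232 genes. In the salicylic acid response list the W-box was found before 7 of 30 genes (23.3%). TGACG lay before 20.4% of the higher genes, 18.6% of the lower genes and 19.3% of all, and before 9 of the 30 listed genes (30%). CACGTG, the G-box, lay before 7.43% of the higher genes, 7.57% of the lower genes and 7.27% of all. Neighbouring genes can share a window, so the intervals cover counting error only.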

How the data were processed

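Reads were aligned with STAR 2.5.3 and analysed with DESeq2 against TAIR10, per the submitters' processing notes; the counting tool and annotation version are not given in the sources used here. The authors deposited whole-number counts of reads per gene for 18 libraries, of which the 12 of the first sequencing stage were used. Rows that name no gene (unmapped 2.76% to 9.32%, several genes 3.93% to 4.85%, several places 1.39% to 1.85% of reads) were left out of totals.

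Counts were filtered with filterByExpr, scaled by TMM and fitted with edgeR 4.0.16 (R 4.3.3; quasi-likelihood, prior count 2), all 4 genotypes sharing 1 estimate of spread, and p-values were adjusted by Benjamini-Hochberg over 20325 genes. Counts were simulated with the same library sizes, 1 fixed spread for every gene and 98 genes changed at each of 2 sizes. There 45.9% of genes changed by 1 and 98% of genes changed by 2 on the log2 scale were recovered among 19979 genes. Alternatives were RLE and upper-quartile scaling, no filter, a fit of 6 libraries, a replicate block, each library left out, and DESeq2 1.42.0. Counting intervals cover counting error only.

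Of the gene rows 99.24% matched a RefSeq name, and 508 of 517 list entries matched a gene row. RPS2, MYC2, LHCB1.5, F3H, GSTF11 and SPL15 were listed at 0 in all 12 libraries. Whether these genes were silent or their reads were lost in counting was not tested. The members and the 21 gene lists were chosen with earlier results of these data known. The genes named were, of those that passed the test with a symbol, groups that do not overlap and a log2 CPM averaging 1 or more, the 10 that rose most and the 10 that fell most, then the 2 members of lowest adjusted p per list, and a short set of marker genes; other genes named in the text were chosen after their values were seen.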

Additional observations from a re-analysis of the deposited data

How the results depend on the processing

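The number of genes called in C24 x Ler against Ler was 6149 and lay between 3996 and 7608 when single libraries were left out (2025 to 4055 higher, 1971 to 3553 lower). It was 3949 in a fit of the 6 libraries alone, with 1759 higher. It was 5977 with RLE scaling, 5994 with upper-quartile scaling, 5997 without a filter and 6632 in DESeq2. Same-numbered libraries correlated at 0.229, −0.0888 and 0.0335 in their deviations from the group means, so the numbers were not taken as pairs; with a replicate block 5989 genes were called. The log2 fold change of PR1 lay between −1.29 and 0.55 when single libraries were left out, and it turned direction without Ler replicate 1, at 0.55 with adjusted p = 0.22, against 0.33 with all libraries and 0.087 to 0.55 over its alternatives; the cause was not tested. Of 65 named genes that passed the test, 59 passed under every alternative; the other 6 were PR2, ICS1, SAG13, RBCS2B, AOP3 and PRR3. Of 504 list counts under alternatives 75 moved by more than 1.5 times. In the last 150 bases before the start, a W-box lay before 23.9% of higher, 16.9% of lower and 19.1% of all genes, TGACG before 14.1%, 12.5% and 13.2%, and CACGTG before 5.62%, 5.19% and 5.45%. Read at 1 or 10 CPM in place of 3, genes of C24 had a median of 35.5% or 46.7% of the C24 level in the hybrid, and genes of Ler 28.3% or 14.7% of the Ler level. With 1 fixed spread for every gene and few changed genes, 45.9% of simulated 2-fold changes were found. Both settings differ from these data, so that share does not measure what was missed here. Of the 6149 genes called, 2729 changed by more than 2-fold, and smaller differences may still have been missed.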

Other observations

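Gene families named by their annotation were chosen after values were seen and are given as counts. Among all genes tested 15.8% were higher in the hybrid and 14.4% lower. Of 84 tested TIR-NBS immune receptor genes 52 were higher in C24 x Ler than in Ler and 2 lower, with a median log2 fold change of 0.83, and of 18 CC-NBS receptor genes 14 were higher and 1 lower, with a median of 0.79. Receptor-like proteins gave 20 higher and 1 lower of 41, with a median of 0.55. WRKY transcription factors gave 11 higher and 10 lower of 54, each not far from the share of all genes, with a median of 0.13. In this family 7 were higher without hybrid replicate 1 or 2 or Ler replicate 2 or 3. The number higher was 16 without Ler replicate 1, and 5 were lower without Ler replicate 3.

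Families with parts in cell division were also counted. Of 17 tested A and B cyclins 10 were lower and 0 higher, with a median log2 fold change of −0.85, and of 27 kinesins, motors of the dividing cell, 16 were lower and 1 higher, with a median of −0.75. Histones gave 13 lower and 1 higher of 28, with a median of −0.30, and 8 were lower without hybrid replicate 1 or 3 or Ler replicate 3. Ribosomal protein genes gave 19 higher and 20 lower of 312, each below the share of all genes, with a median of −0.07 and no stable split. Without hybrid replicates 1, 2 and 3 there were 5, 6 and 26 higher and 10, 26 and 10 lower. Without Ler replicates 1, 2 and 3 there were 36, 5 and 5 higher and 27, 9 and 6 lower. Lipid-transfer proteins, many of which are made in anthers and epidermis, gave 7 higher and 31 lower of 64, with a median of −1.20. The summed level of the shoot apex markers was 117 to 147 CPM in the hybrid and 141 to 254 CPM in Ler, with overlap. The part of shoot apex tissue in the counts of these families was not tested.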
